A study of Mus musculus with 9 samples.

Results

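The 10 genes described here are Eif4ebp1, Atf4, Ddit3, Trib3, Chac1, Asns, Psat1, Phgdh, Sesn2 and Slc7a11, a set drawn from the integrated stress response and from serine synthesis. They were matched by symbol, and all 10 were found among the 32285 mouse genes of the count matrices. A readout had a part in the choice: Eif4ebp1 was selected on its higher level in microglia of tumor-bearing mice. Values of the microglia contrast between tumor and control mice are therefore given as description, with no p-value, and counts past the threshold there are given only beside the share of all genes. Droplet-based single-cell RNA sequencing from the 5′ end of transcripts was available for the brains of 4 control mice, labelled NestinCreERT2;TdT, and for 5 tumor mice, labelled NestinCreERT2;Fus1 and named EP ZFTA-RELA in the protocol. All mice were 6 to 8 weeks old. Both groups carried NestinCreERT2, a tamoxifen-inducible Cre under a neural progenitor promoter; the controls also carried the TdT label and the tumor mice the conditional ZFTA-RELA fusion, an ependymoma driver. Tissue of both groups was dissociated with a tumor dissociation kit, spun in Percoll and sorted after staining with DAPI, a dye for dead cells, and with an antibody to the red cell marker Ter119.

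The integrated stress response is the pathway by which cells slow general translation when amino acids run short, when unfolded proteins collect in the endoplasmic reticulum (ER), or on infection or heme loss. Kinases phosphorylate eIF2alpha, most translation falls, and the transcription factor ATF4 is translated in spite of this. ATF4 turns on genes for amino acid import, amino acid synthesis and redox balance, and with prolonged stress it turns on the factor DDIT3 (CHOP). ATF4 is itself controlled mostly in translation, so its mRNA is only a partial readout of the pathway. Among the other members, TRIB3 is a pseudokinase that restrains ATF4, CHAC1 degrades glutathione and SESN2 restrains mTORC1. ASNS makes asparagine, SLC7A11 imports cystine, and PHGDH and PSAT1 carry out the opening steps of serine synthesis. EIF4EBP1 (4E-BP1) binds the cap-binding protein eIF4E and blocks translation until mTORC1 phosphorylates it. In brain, serine synthesis is known chiefly from astrocytes and other glia, which supply neurons.

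ATF4 acts as a dimer, often with a C/EBP factor, on a composite element with the letters TGATGNAA, which reads TTNCATCA on the other strand. Promoter sequence from RefSeq (build GRCm38.p6, 250 bases before to 50 bases after each annotated start) was held for 9 of the 10 members. The letters occurred in 4 of these, Chac1, Trib3, Slc7a11 and Asns. They occurred in 3.97% of all 32851 promoters of this length. The matches are printed because they are the sequence that these ATF4 target genes share. Each is written 5′ to 3′ on the strand of the gene, with the 8 letters of the motif in capitals, and a match is a description of letters and not a shown binding site.
Chac1, chr2:119351038-119351067, plus strand: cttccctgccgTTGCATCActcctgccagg
Trib3, chr2:152344028-152344057, minus strand: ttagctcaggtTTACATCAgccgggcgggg
Slc7a11, chr3:50443661-50443690, minus strand: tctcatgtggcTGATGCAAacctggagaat
Slc7a11, chr3:50443642-50443671, minus strand: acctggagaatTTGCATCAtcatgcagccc
Asns, chr6:7693214-7693243, minus strand: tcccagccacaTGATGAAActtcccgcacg
Counted from the annotated start, the motif began at position -193 in Chac1, at 14 in Trib3, at -66 and -47 in Slc7a11, and at -23 in Asns. The printed stretches of Slc7a11 overlap each other. The Slc7a11 promoter held the motif in both orientations, the only member promoter with more than 1 match. Eif4ebp1 was the member with no promoter in the table. In the GENCODE M21 annotation of GRCm38 (mm10), Eif4ebp1 (ENSMUSG00000031490) is a gene of 3 exons on chromosome 8, plus strand, from 27260329 to 27276674. Phgdh (ENSMUSG00000053398) lies on chromosome 3, minus strand, from 98313170 to 98339990, and Psat1 (ENSMUSG00000024640) on chromosome 19, minus strand, from 15904678 to 15947337. Asns (ENSMUSG00000029752) lies on chromosome 6, minus strand, from 7675169 to 7693254, and Slc7a11 (ENSMUSG00000027737) on chromosome 3, minus strand, from 49892526 to 50443614.

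Cells were kept by their UMI and gene counts and mitochondrial share, and 20405 cells of control mice and 15916 cells of tumor mice remained. A UMI is a molecular tag that lets each captured transcript be counted once. The files held 101060608 to 178086164 UMIs per control mouse and 14967680 to 69411387 per tumor mouse. UMIs that cover the fusion were found in 0 kept cells of each control mouse and in 6, 209, 6, 609 and 278 kept cells of tumor mice 1 to 5, so tumors 1 and 3 held few such cells. The 8 libraries with complete barcode lists shared 19 to 45 cell barcodes per pair. Cells were assigned to 10 marker gates, each a range of marker counts and not a proven cell type, and UMIs were summed per mouse and gate. Of the gated cells, 41.6% of control and 16.9% of tumor astrocytes, and 31.3% and 57.4% of neurons, had the fewest markers their gate allowed or a marker share just above its limit, against 1.36% and 2.37% of microglia. Values below are UMIs per 1000000 UMIs of the same mouse and gate (CPM). Each library is labelled as a separate sample, and p-values cover the spread between these libraries only. The test estimates that spread partly from all genes together. A very small p-value therefore does not measure the spread of that gene alone over a few mice. Intervals and limits of detection cover counting error only. The 3000 barcodes with the lowest totals in each library were taken as free RNA. Their median was 691 to 1338 UMIs in controls and 559 to 649 in tumors, and no library listed a barcode below 468 UMIs. Whether these barcodes held free RNA alone was not tested. In tumor 3 they were also among the 9001 barcodes considered as cells. The free RNA share of a gate was its neuron marker share relative to that of free RNA, at most 90%. By this measure free RNA made up an estimated 54.6 to 72.3% of the UMIs of control microglia gates but 8.16 to 27% in tumor microglia gates. The corresponding ranges were 68 to 76.1% and 23 to 64.7% for the astrocyte gate and 44.6 to 65% and 8.27 to 26.5% for the endothelial gate. Neuron markers were 0.964 to 1.01% of free RNA in controls but 0.071% in tumor 4 and 0.288% in tumor 5. The estimate, and values with free RNA subtracted, are therefore weakly founded in these 2 tumors. In tumor 4 the mural gate and the Igf2, H19 and Dlk1 gate reached the limit of 90%. Free RNA held 83.9 to 113 CPM of Atf4 in controls and 50.8 to 89 CPM in tumors, 46 to 60.4 and 29.1 to 40.5 CPM of Ddit3, and 52.1 to 57.1 and 41.5 to 67.8 CPM of Psat1. For Slc7a11 it held 23.5 to 27.9 CPM in controls and 26 to 73.6 CPM in tumors, for Sesn2 3.99 to 6.04 and 7.79 to 14.4 CPM, for Chac1 2.23 to 6.31 and 1.19 to 6.4 CPM, and for Trib3 0 to 0.631 and 0.57 to 3.12 CPM. Free RNA of Eif4ebp1, Phgdh and Asns is given with their gate values.

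In the sum of all kept cells, 9 of the 10 members passed the edgeR quasi-likelihood test (Benjamini-Hochberg adjusted p at 0.05 over 17599 genes), 8 of them higher and 1 lower in tumors. Across all genes 32.3% were called higher and 29.4% lower, so a call in these sums is common. The median log2 change was 1.13 over the members and 0.0433 over all genes tested. The 8 include Eif4ebp1, which was chosen on microglia that are part of these sums. They also include Trib3, which passed the count filter only through the tumor mice. Both enter the member median, so the count and the median are given as description. These sums mix cell composition with expression: the neuron gate held 2548 to 3463 cells in each control mouse and 0 to 245 in tumor mice.

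Eif4ebp1 had 4.94, 4.18, 4.54 and 5.07 CPM in control mice 1 to 4 and 33.2, 94.6, 47.6, 78 and 41.7 CPM in tumor mice 1 to 5. Every tumor mouse lay above every control mouse, and the fitted log2 change was 3.98 ± 0.44 (SE; adjusted p = 0.000182). These sums include the microglia that led to its choice, which carried 5.18 to 50.4% of the Eif4ebp1 UMIs of a tumor. With the cells of the microglia and macrophage gates left out, an alternative added after the data were seen, the change was 3.94 (adjusted p = 0.000619). Phgdh had 33.9, 37.1, 36.3 and 37 CPM in controls and 117, 229, 149, 283 and 138 CPM in tumors. The groups did not overlap, and the log2 change was 2.66 ± 0.37 (adjusted p = 0.00042). Psat1, the enzyme after PHGDH, had 37, 33.2, 30.6 and 31.8 CPM in controls against 92.2, 59.2, 71.2, 47.1 and 30.9 CPM in tumors. Tumor 5 lay within the control range, and the log2 change was 1.07 ± 0.24 (adjusted p = 0.00405).

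Asns was the member that fell. It had 49.8, 45.6, 41.3 and 47.8 CPM in controls and 27.8, 21.9, 15.9, 20.1 and 19.2 CPM in tumors, with no overlap, and decreased by 0.88 ± 0.19 on the log2 scale (adjusted p = 0.00339). Free RNA of Asns was lower in tumors too, with a mean of 79.4 CPM in controls and 22.8 CPM in tumors, and the sums lay below it in 4 of 4 controls and 3 of 5 tumors. Sesn2 was called higher by 1.05 ± 0.25 (adjusted p = 0.00524), with 4.42 to 6.93 CPM in controls and 6.69 to 12.1 CPM in tumors. It lay below the free RNA of the same mouse in 5 of 5 tumors, and free RNA itself had a mean of 5.24 CPM in controls and 11.1 CPM in tumors, so the change in cells could not be told from that of free RNA. Trib3 differed by 2.28 ± 0.62 (adjusted p = 0.0104) at levels of 0.461 to 1.26 CPM in controls and 0.808 to 4.78 CPM in tumors. Its counts were low, with 53 UMIs in all control mice together and 297 in all tumors, and it passed the count filter only through the tumor mice, so its call is not used as support. The calls of Atf4, Chac1 and Slc7a11 were each lost under several alternatives. Atf4 had a log2 change of 0.57 ± 0.19 (adjusted p = 0.0279), from 59.2 to 78.5 CPM in controls to 73.4 to 102 CPM in tumors. It passed the threshold under 11 of 17 alternatives and missed it without control 2 (adjusted p = 0.0599), control 3 (0.089), control 4 (0.0699) or tumor 2 (0.0527). Chac1 changed by 1.50 ± 0.54 (adjusted p = 0.0361) and passed under 8 of 17 alternatives, missing without any 1 of the 4 controls (adjusted p = 0.0594 to 0.0891), without tumor 4 (0.0704) and without tumor 5 (0.0705). Slc7a11 changed by 1.19 ± 0.42 (adjusted p = 0.0333) and likewise passed under 8 of 17, missing without any 1 of the 4 controls (0.063 to 0.0823), without tumor 1 (0.0608) and without tumor 5 (0.0593). Ddit3 did not pass, with 29.8 to 36.3 CPM in controls and 30.8 to 43.2 CPM in tumors (adjusted p = 0.0868).

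**Figure D1:**
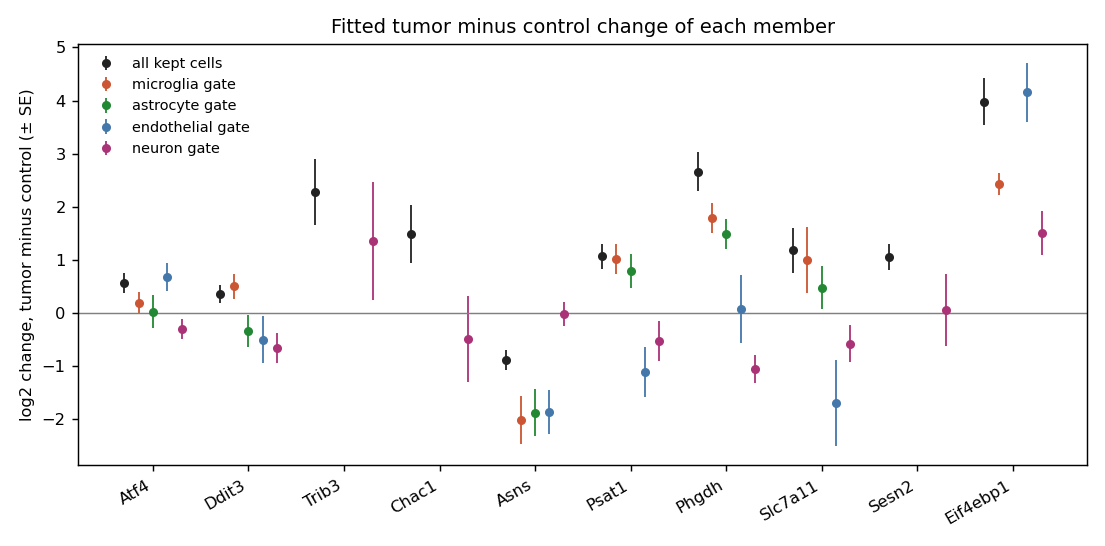
Fitted log2 change (tumor minus control, y axis) of each member (x axis) with its standard error, in all kept cells and in 4 marker gates. Members without a point in a gate were below the count filter there; Phgdh lies above 0 in all cells, microglia and astrocytes, near 0 in the endothelial gate and below 0 in the neuron gate.

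In the microglia gate, 95 to 161 cells per control mouse and 231 to 343 cells per tumor mouse were summed, and 7 members passed the count filter. Trib3, Chac1 and Sesn2 were below it. Of the 7, 3 lay past the threshold in the higher direction and 1 in the lower direction, where 18.2% and 21.2% of all 8496 genes did, and nothing is read from these counts because this contrast was used in the choice. Eif4ebp1 had 25.6, 24.1, 30.4 and 28.5 CPM in controls, from 8 to 14 UMIs per mouse, and 132, 125, 91, 104 and 115 CPM in tumors. The fitted log2 difference was 2.43 ± 0.21. Free RNA held 5.4 to 5.99 CPM of Eif4ebp1 in controls and 13.1 to 51.2 CPM in tumors, so microglia lay above free RNA in every mouse. With free RNA subtracted from the sums, the difference was 1.79. Phgdh had 28.8, 81.7, 60.7 and 87.6 CPM in control microglia and 149, 192, 165, 197 and 175 CPM in tumor microglia, a log2 difference of 1.79 ± 0.28. Psat1 had 24.3 to 38.4 CPM in controls and 34.5 to 80.7 CPM in tumors (1.01 ± 0.28), and the groups overlapped. Asns had 35.3 to 57 CPM in controls and 2.99 to 24.8 CPM in tumors, a log2 difference of -2.01 ± 0.46, with no overlap. Its control values lay below the free RNA of the same mice in 4 of 4 mice, and with free RNA subtracted it no longer passed the count filter. Atf4 had 94.7 to 115 CPM in controls and 65.1 to 118 CPM in tumors, and its difference was 0.19 with TMM scaling factors but -0.19 without them. Ddit3 (31.6 to 44.8 against 32.6 to 52.8 CPM) and Slc7a11 (9.28 to 21.3 against 7 to 52 CPM) overlapped between the groups.

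**Figure D2:**
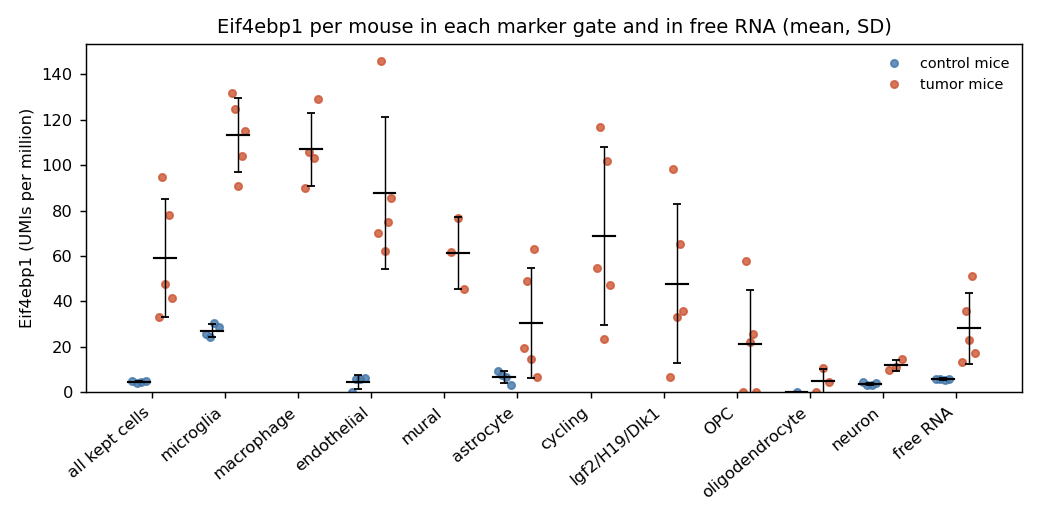
Eif4ebp1 (y axis, CPM) per mouse in all kept cells, 10 marker gates and free RNA (x axis); blue points are control mice, red points tumor mice, bars the mean and SD. The 5 tumor mice lie between 62.1 and 146 in the endothelial gate, where control mice lie between 0 and 6.1.

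Outside microglia, Eif4ebp1 was also higher in tumor mice in the endothelial gate. Control mice had 0, 1, 1 and 1 UMIs in 26, 35, 33 and 30 cells, that is 0, 6, 5.68 and 6.1 CPM. The 0 UMIs of control 1 allow a level of up to 45.1 CPM, the value of 3 UMIs. Tumor mice had 70.3, 146, 62.1, 75.2 and 85.7 CPM in 131 to 180 cells each, and every tumor mouse lay above every control mouse. Under the alternative mitochondrial limit of 10% this gate held 6, 9, 9 and 12 cells in control mice 1 to 4 and 87 to 286 in tumor mice. That left too few control cells to test, so the difference was not examined at that limit. The gene passed the count filter only through the tumor mice, so its call by edgeR (adjusted p = 0.000844) is not used as support. Pooled over mice, 3 control UMIs stand against 363 tumor UMIs, a ratio of 17.1-fold with a 95% counting interval of 5.82 to 83.5. This interval leaves out the spread between mice, and the ratio is given as description. Tumor endothelial gates lay above tumor free RNA in the same mice. Control endothelial gates, at 0 to 6.1 CPM, were near control free RNA of 5.4 to 5.99 CPM, so their own level is not known. Of the 7 members past the filter in this gate, 1 was called higher and 1 lower, while 12.7% of 7122 genes were called higher and 12.3% lower. The median log2 change was -0.50 over the members and 0.0546 over all genes tested.

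The other endothelial call was Asns. It had 30.1, 90, 34.1 and 42.7 CPM in control mice and 19.8, 8.62, 14.7, 10.1 and 13.1 CPM in tumor mice, and it decreased by 1.86 ± 0.42 on the log2 scale (adjusted p = 0.0079). Asns passed the count filter, here a level of 22 CPM, only through the control mice, so this call is not used as support either. Without control 2, the mouse with 90 CPM, the change was -1.35 and no longer passed (adjusted p = 0.071), and Asns was below the count filter under 5 alternatives, the subtraction of free RNA among them. It lay below the free RNA of the same mouse in 3 of 4 control and 5 of 5 tumor mice. Phgdh in this gate showed 60.2, 24, 51.1 and 12.2 CPM in controls and 15.4, 22.6, 9.03, 49.5 and 68.2 CPM in tumors, overlapping ranges that in 5 of 5 tumor mice were below free RNA. Psat1 (22.7 to 60.2 against 6.77 to 23.2 CPM; adjusted p = 0.102) and Atf4 (56.8 to 75.2 against 76.9 to 132 CPM; adjusted p = 0.0737) missed the threshold in opposite directions. For Atf4 the ranges of the groups did not overlap, and it passed with free RNA subtracted (log2 change 2.14). That value is not used as support, because control sums of Atf4 lay below free RNA in 4 of 4 mice and a larger share was subtracted from controls. The median log2 change of all genes in that setting was 0.254.

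Eif4ebp1 was below the count filter in the astrocyte gate, with 1 to 3 UMIs per control mouse. Its astrocyte levels were 9.21, 7.74, 6.88 and 3.16 CPM in controls and 19.3, 48.9, 14.7, 63.2 and 6.53 CPM in tumors. Tumor 5 lay within the control range. In the neuron gate, which only tumors 1 to 3 filled with at least 20 cells, it had 4.34, 3.15, 3.25 and 3.86 CPM in controls and 9.81, 10.9 and 14.7 CPM in tumors. This passed the test (1.50 ± 0.41; adjusted p = 0.0392), but the tumor values rest on 4 to 6 UMIs per mouse and lay below the free RNA of tumors 1 to 3 (13.1, 35.8 and 23.2 CPM). The call held under 5 of 15 alternatives. It was lost without control 2 (adjusted p = 0.0664), control 3 (0.0625), control 4 (0.0575), tumor 1 (0.0715), tumor 2 (0.0765) or tumor 3 (0.1).

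Ordered by mean, Eif4ebp1 in control mice was highest in the microglia gate (27.2 ± 2.81 CPM, SD, n = 4), followed by the astrocyte (6.75 ± 2.58), endothelial (4.44 ± 2.97) and neuron gates (3.65 ± 0.553). Control microglia did not overlap the astrocyte gate, and each later neighbour overlapped the one before it. In tumors the microglia gate (113 ± 16.5 CPM, n = 5), the macrophage gate (107 ± 16.1, n = 4) and the endothelial gate (87.8 ± 33.4, n = 5) overlapped one another. Cells of the cycling gate (68.7 ± 39, n = 5) and the mural gate (61.3 ± 15.7, n = 3) came next. Cells rich in Igf2, H19 and Dlk1, a gate that held 0 cells in control mice and 38 to 2161 in tumor mice, had 6.83 to 98.2 CPM. The oligodendrocyte gate was lowest, with 0 to 10.6 CPM in 3 tumor mice. Within tumors, cycling cells outside the immune and vascular gates had more Eif4ebp1 than astrocytes of the same mice, by 1.18 ± 0.31 on the log2 scale (adjusted p = 0.00701). The gene passed the count filter through the cycling gate alone (5 of 5 mice at or above 21.6 CPM, against 2 of 5 for astrocytes), so the call is given as description. It was higher in 5 of 5 mice, with 54.6, 117, 23.6, 102 and 47.1 CPM against 19.3, 48.9, 14.7, 63.2 and 6.53 CPM. The call was lost when free RNA was subtracted (log2 difference 1.52; adjusted p = 0.137) and when at least 50 cells per mouse were required (1.16; 0.0537). The macrophage gate, of tumors 1 to 4, had 89.9, 106, 103 and 129 CPM, a log2 difference of 0.03 from microglia that is given without a test because tumor microglia entered the choice of the gene.

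Across 60 sums of mouse and gate, the genes whose log2(CPM + 10) followed Eif4ebp1 most closely included the ribosomal protein genes Rps24 (Pearson r = 0.836), Rpl23 (0.831), Rpl10a (0.827) and Rpl35 (0.824), of 8091 genes compared. Atf4 had r = 0.477 and ranked 764. Phgdh (0.0671) and Ddit3 (0.0254) showed no close likeness, and Slc7a11 (-0.258), Asns (-0.345) and Psat1 (-0.345) had negative values. The sums share mice and depth, so these are descriptions over 60 points that are not independent.

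Phgdh was higher in the astrocyte gate of tumor mice than in that of control mice. The gate did not use fusion UMIs, and whether it held tumor cells with astrocyte markers was not tested. The astrocyte gate held 52 to 106 cells per control mouse and 31 to 353 per tumor mouse, and Phgdh had 82.9, 74.8, 77.9 and 97.8 CPM in controls against 192, 137, 351, 201 and 242 CPM in tumors. The groups did not overlap, and the log2 change was 1.48 ± 0.28 (adjusted p = 0.000912), called under each of 19 alternatives with a range of 1.19 to 1.98. Phgdh lay above the free RNA of the same mouse in 4 of 4 control and 5 of 5 tumor mice, and the change was 1.50 with free RNA subtracted. Of the 6 members past the filter in the astrocyte gate, 1 was called higher and 1 lower, beside 14.7% and 15.4% of 6672 genes. The median log2 change was 0.255 over the members and 0.0291 over all genes tested. Psat1 had 73.7, 59.3, 59.6 and 66.3 CPM in controls and 118, 137, 162, 86.2 and 47.9 CPM in tumors. Of the tumor mice 4 lay above every control and tumor 5 below them, and the change did not pass (0.80; adjusted p = 0.0726).

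In the neuron gate Phgdh went the other way. It had 28.1, 30.4, 29.1 and 30.4 CPM in controls and 19.6, 10.9 and 14.7 CPM in tumors 1 to 3, and decreased by 1.05 ± 0.27 (adjusted p = 0.0284). Tumor values came from 4 to 12 UMIs per mouse and lay below free RNA in 3 of 3 tumor mice. The call held under 7 of 15 alternatives and was lost without control 2 (adjusted p = 0.0634), control 3 (0.058), control 4 (0.0626), tumor 2 (0.0571) or tumor 3 (0.0596). All 10 members passed the filter in this gate, and these 2, Phgdh and Eif4ebp1, were the ones called, beside 4.87% of 15795 genes called lower and 4.08% called higher. The median log2 change was -0.392 over the members and -0.0486 over all genes tested. The remaining 8 members did not pass.

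The difference between gates in the tumor change was then tested itself, by an interaction term with mouse as block, a test added after the data were seen. Between the astrocyte and neuron gates (7 mice), the Phgdh change differed by 2.48 ± 0.39 (adjusted p = 0.00014) and the Psat1 change by 1.69 ± 0.46 (adjusted p = 0.0102), each higher in astrocytes, beside 6.88% of 9057 genes called in this direction and 10.1% in the other. The tumor neuron values behind both are few UMIs, 12, 5 and 4 of Phgdh and 21, 5 and 1 of Psat1 in tumors 1 to 3, and lay below free RNA in 3 of 3 mice. The Psat1 change in neurons alone ran from -1.82 to -0.23 when 1 mouse at a time was left out. Between the endothelial and neuron gates, the changes of Eif4ebp1 (2.87 ± 0.84; adjusted p = 0.0265) and Atf4 (1.2 ± 0.38; adjusted p = 0.0406) were higher in endothelium, beside 4.9% of 10006 genes in this direction and 7.27% in the other. For Eif4ebp1 this difference rests on 3 UMIs in control endothelium and on 4 to 6 UMIs per mouse in tumor neurons, which lay below free RNA, so it is not used as support. Atf4 lay below free RNA in 4 of 4 control sums of each of these gates and in 2 of 3 tumor neuron sums. Between the astrocyte and endothelial gates (9 mice), 0 members were called by edgeR, beside 0.504% and 0.939% of 8524 genes. The nearest were Psat1 (1.76 ± 0.61) and Slc7a11 (2.00 ± 0.70), both at an adjusted p of 0.164.

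**Figure D3:**
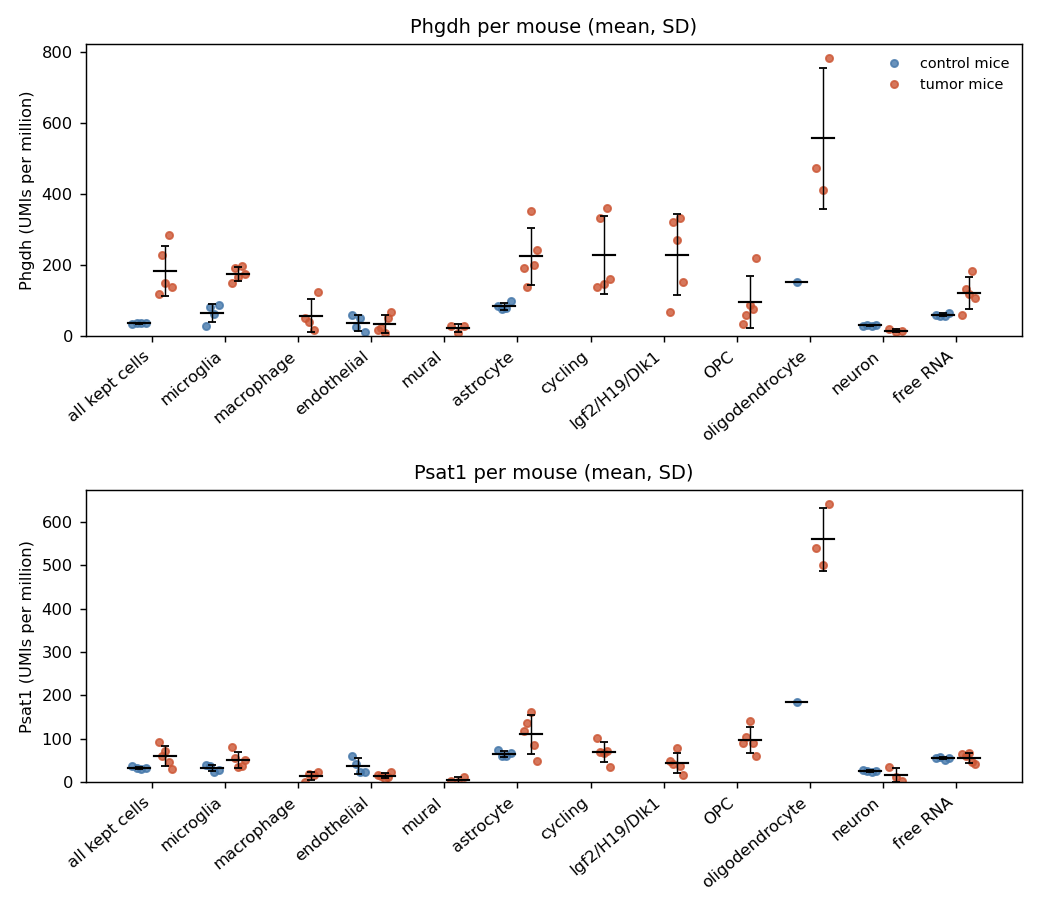
Phgdh (upper panel) and Psat1 (lower panel) in CPM (y axis) per mouse in all kept cells, 10 marker gates and free RNA (x axis), control mice in blue and tumor mice in red, with the mean and SD. Both are highest in the oligodendrocyte gate of tumors, at 412 to 783 for Phgdh and 501 to 641 for Psat1.

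Both serine enzymes had their highest levels in the oligodendrocyte gate. Tumors 1 to 3 filled this gate, with 473, 412 and 783 CPM of Phgdh and 539, 501 and 641 CPM of Psat1, and the 1 control mouse with at least 20 such cells had 151 and 185 CPM. The tumor oligodendrocyte values did not overlap the next gate in the order for either gene. That mouse was control 1, with 9 UMIs of Phgdh and 11 of Psat1 among 59488 UMIs. Controls 2 to 4 had 18, 14 and 15 such cells, with 86279, 75452 and 81563 UMIs. These held 16, 15 and 10 UMIs of Phgdh and 28, 23 and 25 of Psat1. Control 1 was thus the lowest control for Psat1, and its level does not stand for the control group. With 1 control mouse past the cell limit no test between the groups was made. In tumors, Phgdh was next highest in the Igf2, H19 and Dlk1 gate (229 ± 114 CPM, SD, n = 5), the cycling gate (227 ± 110, n = 5), the astrocyte gate (225 ± 79.9, n = 5) and the microglia gate (176 ± 19.7, n = 5), each overlapping its neighbour. The macrophage (57.2 ± 45.9, n = 4), endothelial (33 ± 25, n = 5), mural (22.7 ± 11.3, n = 3) and neuron gates (15.1 ± 4.37, n = 3) were lowest. Free RNA held 56.3 to 65.7 CPM of Phgdh in controls and 59.9 to 184 CPM in tumors. Among the 4 gates that every control mouse filled, the astrocyte gate was highest for both enzymes. Phgdh had 83.4 ± 10.2 CPM there against 29.5 ± 1.1 CPM in the neuron gate, a log2 difference within the same mice of 1.51 ± 0.19 (adjusted p = 2.7e-14). Psat1 had 64.7 ± 6.8 against 26.3 ± 2.03 CPM (1.32 ± 0.21; adjusted p = 7.08e-09). Both were called under each of 11 alternatives, with an adjusted p of up to 0.00349 for Phgdh and 0.000374 for Psat1. Subtraction of free RNA was not among these, as it was not run for comparisons with the neuron gate. For both genes control neurons lay below free RNA in 4 of 4 mice and control astrocytes above it in 4 of 4.

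Of the 9 members tested between astrocytes and neurons, Slc7a11 differed by the largest log2 value. Control astrocytes had 82.9, 181, 199 and 164 CPM against 15, 13.9, 13 and 15.2 CPM in neurons of the same mice, a log2 difference of 3.61 ± 0.17 (adjusted p = 3.11e-100). Against control microglia (16, 9.28, 21.3 and 14.3 CPM) the difference was 3.52 ± 0.25 (adjusted p = 2.52e-42). The first call held under each of 11 alternatives, with an adjusted p of up to 2.87e-08, but subtraction of free RNA was not among them. In the second, Slc7a11 passed the count filter (27.9 CPM) through astrocytes alone, so that call is given as description, and the difference grew to 6.46 with free RNA subtracted. In tumors the astrocyte gate again had the highest mean, with 276, 108, 405, 63.2 and 233 CPM against 6.83, 22.5, 10.7, 6.34 and 35.8 CPM in cycling cells, which were lower by 3.42 ± 0.37 in 5 of 5 mice (log2 scale; adjusted p = 5e-06). Here too it passed the filter through astrocytes alone. Tumor and control astrocytes overlapped in Slc7a11 (0.48; adjusted p = 0.402).

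In control mice, 9 members passed the filter for astrocytes against neurons, with 4 called higher and 0 lower by edgeR, beside 16.5% and 25.8% of 13936 genes. The fourth call was Ddit3 (0.59 ± 0.23; adjusted p = 0.0268), which held under 5 of 11 alternatives and was lost without control 2 (0.49; adjusted p = 0.175) or control 3 (0.503; 0.154). For astrocytes against microglia, 6 members passed the filter, with 2 called higher and 1 lower, beside 16.6% and 20.1% of 6396 genes. Psat1 was higher in astrocytes by 1.05 ± 0.28 (adjusted p = 0.000807), with 4 of 4 astrocyte and 3 of 4 microglia sums at or above the count filter. It thus passed the filter through astrocytes alone, and the call is given as description. By DESeq2 the adjusted p was 0.0597, and with free RNA subtracted Psat1 was below the filter. Phgdh did not differ past the threshold (0.28). Atf4 was lower by 0.57 ± 0.21 (adjusted p = 0.0192), a call that rested on control 3, whose astrocytes had 32.1 CPM: without that mouse it was -0.218 (adjusted p = 0.532). In tumors, macrophages had less Phgdh than microglia, with 51.4, 38.6, 16.3 and 123 CPM against 149, 192, 165 and 197 CPM (a decrease of 1.65 ± 0.30; adjusted p = 0.00319). Psat1 was also lower, by 1.23 ± 0.31 (adjusted p = 0.0298), with 3 of 4 macrophage and 4 of 4 microglia sums at or above the count filter. It thus passed the filter through microglia alone, and this Psat1 call is given as description. Of 8 members past the filter these 2 were called lower and 0 higher, beside 2.06% of 9811 genes lower and 2.37% higher. The Phgdh call was lost without tumor 1 (-1.66; adjusted p = 0.0594) or tumor 2 (-1.43; 0.0884), and the Psat1 call without tumor 1 (-1.08; 0.0832), tumor 2 (-1.2; 0.396) or tumor 4 (-1.57; 0.0727).

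Asns was also lower in tumor than in control astrocytes. It had 55.3, 43.8, 32.1 and 34.7 CPM in control and 13.3, 29.3, 2.45, 5.75 and 10.9 CPM in tumor astrocytes, with no overlap, and decreased by 1.87 ± 0.44 on the log2 scale (adjusted p = 0.0041). It passed the count filter (25.8 CPM) only through the control mice, since 1 of 5 tumor mice reached that level, so the call is not used as support. Counts were low, at 6 to 17 UMIs per control mouse and 1 to 11 per tumor mouse. Free RNA held 70.3 to 88.5 CPM of Asns in controls and 14 to 37.6 CPM in tumors, and control astrocytes lay below free RNA in 4 of 4 mice. With free RNA subtracted Asns no longer passed the count filter, so its change within astrocytes could not be told from that of free RNA. In the neuron gate Asns did not pass, with 39 to 46.8 CPM in controls and 36 to 63.2 CPM in tumors 1 to 3. The cycling gate, which did not use fusion UMIs, was the gate where Asns lay above free RNA in every tumor mouse. Cycling cells of tumor mice had 41, 40.5, 40.7, 26.3 and 31.9 CPM against 13.3, 29.3, 2.45, 5.75 and 10.9 CPM in astrocytes of the same tumors, a difference of 1.72 ± 0.41 (adjusted p = 0.00322), higher in 5 of 5 mice. Asns passed the count filter there through cycling cells alone, with 1 of 5 astrocyte sums at or above 21.6 CPM, so this call too is given as description. Of the 7 members past the filter in this comparison, 2 were called higher (Asns and Eif4ebp1) and 2 lower (Slc7a11 and Psat1), beside 20.8% and 21.4% of 6649 genes. Psat1 was lower in cycling cells by 0.72 ± 0.23 (adjusted p = 0.0206), a call that held under 7 of 14 alternatives and was lost without tumor 2 (-0.66; adjusted p = 0.0583), tumor 3 (-0.512; 0.104) or tumor 5 (-0.762; 0.051).

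**Figure D4:**
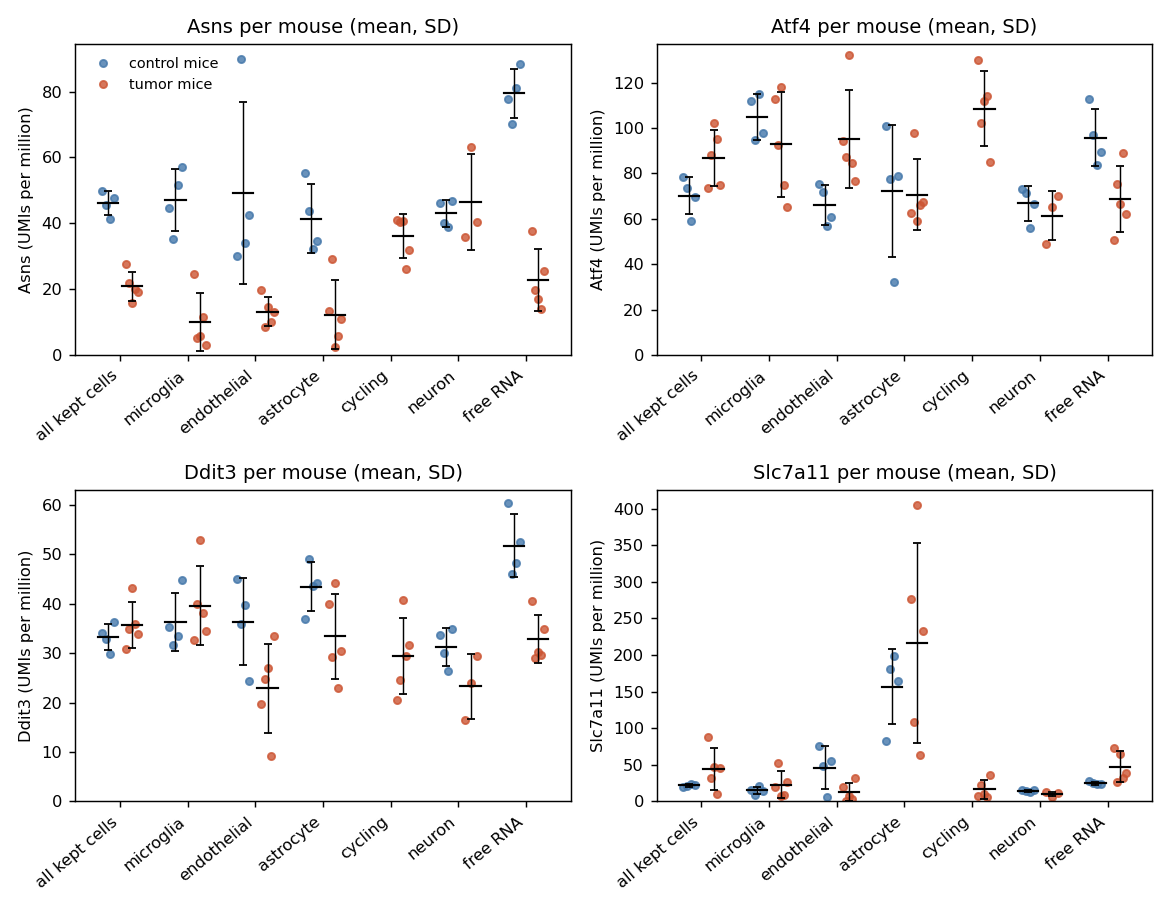
Asns, Atf4, Ddit3 and Slc7a11 in CPM (y axis of each panel) per mouse in all kept cells, 5 gates and free RNA (x axis), control mice in blue and tumor mice in red, with the mean and SD. Control free RNA holds 70.3 to 88.5 of Asns, above control microglia, astrocytes and neurons; Slc7a11 is highest in the astrocyte gate of both groups.

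Atf4 and Ddit3, the transcription factors among the members, passed the test between tumor and control mice in none of the astrocyte, endothelial and neuron gates. In astrocytes Atf4 had 101, 77.4, 32.1 and 78.9 CPM in controls and 62.8, 97.8, 58.9, 66.1 and 67.5 CPM in tumors (log2 change 0.03, not past the threshold). The cycling gate of tumor mice had 130, 102, 112, 114 and 84.9 CPM of Atf4 against those astrocyte values, a difference of 0.54 that missed the threshold (adjusted p = 0.061). Ddit3 had 36.9 to 49 CPM in control and 23 to 44.2 CPM in tumor astrocytes, and 24.4 to 45.1 CPM in control and 9.17 to 33.4 CPM in tumor endothelium; neither passed. A second annotated Ddit3 feature inside the first held 0 UMIs in the kept cells and the first 5409. Trib3 and Chac1 had at most 9 UMIs per mouse in the microglia, astrocyte and endothelial gates, too few to compare. Of 180 Trib3 UMIs in tumor 4, 38 lay in the cycling gate and 76 in the Igf2, H19 and Dlk1 gate. Of its 397 Chac1 UMIs, 107 and 205 lay in these gates. The gates held 9309572 and 15771350 of the 37640385 UMIs of all kept cells of tumor 4. Trib3 had 4.08 and 4.82 CPM in them against 4.78 CPM in all kept cells, so its counts followed the size of the gates.

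The other genes of the pathway were followed in 8 lists by role, 69 genes found in the matrices. In the astrocyte gate 45 were tested and 16 were called higher and 3 lower, beside 14.7% and 15.4% of all genes tested there. Of these 19, 10 passed the count filter only through the tumor mice and 2, Vldlr and Gars, only through the control mice, so their calls are description. The 7 that passed through both groups were Slc3a2, Slc1a4, Gcsh, Hsp90b1, Manf and Dnajc3, all higher, and Nars, lower. All these calls are given without subtraction of free RNA, an estimated 68 to 76.1% of control and 23 to 64.7% of tumor astrocyte UMIs. All 3 tested genes of the serine, glycine and one-carbon list were called higher, but of these only Gcsh passed the filter through both groups. They were Psph, the last enzyme of serine synthesis (33.8 ± 24.3 CPM in controls, 143 ± 74.8 in tumors; log2 change 1.85; adjusted p = 0.00649), Mthfd1 (1.13; 0.0187) and Gcsh (0.80; 0.0341). Of 5 tested amino acid transporters 3 were higher, Slc7a5 (2.38; adjusted p = 0.00027) and its partner chain Slc3a2 (1.46; 0.000869), which import large neutral amino acids, and Slc1a4 (2.15; 0.000122). The stress factors Cebpb (4.41; adjusted p = 0.000517) and Nupr1 (2.69; 0.00449) were called higher, 2 of 4 tested. Among other ATF4 targets Cbs, which starts cysteine synthesis from homocysteine, had 38.5 ± 15.9 CPM in controls and 226 ± 73.4 CPM in tumors (2.55; 5.22e-05), and Ddit4, Sesn1 and Gpt2 were called higher too, 4 of 15 tested. In the same list Vldlr and the tRNA synthetase genes Nars and Gars were called lower (log2 change -1.73, -0.86 and -0.96). Of 10 tested ER chaperone and unfolded protein response genes 4 were higher, Pdia4 (2.21), Dnajc3 (1.51), Manf (1.47) and Hsp90b1 (0.88).

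In the endothelial gate 45 of these genes were tested, with 14 called higher and 1, Nars, lower, beside 12.7% and 12.3% of all genes tested there. Of these 15, 7 passed the count filter only through the tumor mice and their calls are description: Atf3, Cebpb, Nupr1, Ppp1r15a, Eif2ak4, Creld2 and Ddit4. The factors Atf3 (5.31; adjusted p = 0.0179), Cebpb (4.08; 0.0228) and Nupr1 (1.15; 0.0439) were called higher, 3 of 5 tested, with Ppp1r15a, which directs dephosphorylation of eIF2alpha (3.01; 0.0087), and the kinase Eif2ak4 (GCN2; 2.09; 0.0272). The ER genes Manf, Creld2, Hspa5, Xbp1 and Dnajc3 were called higher, 5 of 12 tested, as did the transporters Slc3a2, Slc38a2 and Slc7a5, 3 of 4, and Ddit4 (adjusted p = 0.00941). Neither tested gene of the serine, glycine and one-carbon list passed. The neuron gate had 3 higher (Slc7a5, Slc1a4 and Cbs) and 1 lower (Slc38a2) of 65 tested, beside 4.08% and 4.87% of all genes tested there, so their share was near or below the background. In the sums of all kept cells 42 of 68 were called higher and 6 lower, beside 32.3% and 29.4% of all genes. Control astrocytes had 20 of 63 higher and 9 lower than neurons, beside 16.5% and 25.8%, and 4 of 39 higher and 17 lower than microglia, beside 16.6% and 20.1%. Cycling cells had 8 of 50 higher and 10 lower than astrocytes, beside 20.8% and 21.4%. A list of 10 genes known to be induced by tissue dissociation, Fos, Jun and Hspa1a among them, had a summed level of 256 to 354 CPM in control and 578 to 3910 CPM in tumor endothelium. The values were 177 to 369 and 137 to 1560 CPM in astrocytes, and 585 to 1210 and 837 to 10000 CPM in microglia. Atf3, Cebpb and Ppp1r15a are also known to respond to dissociation, and the part of dissociation in these changes was not tested.

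**Figure D5:**
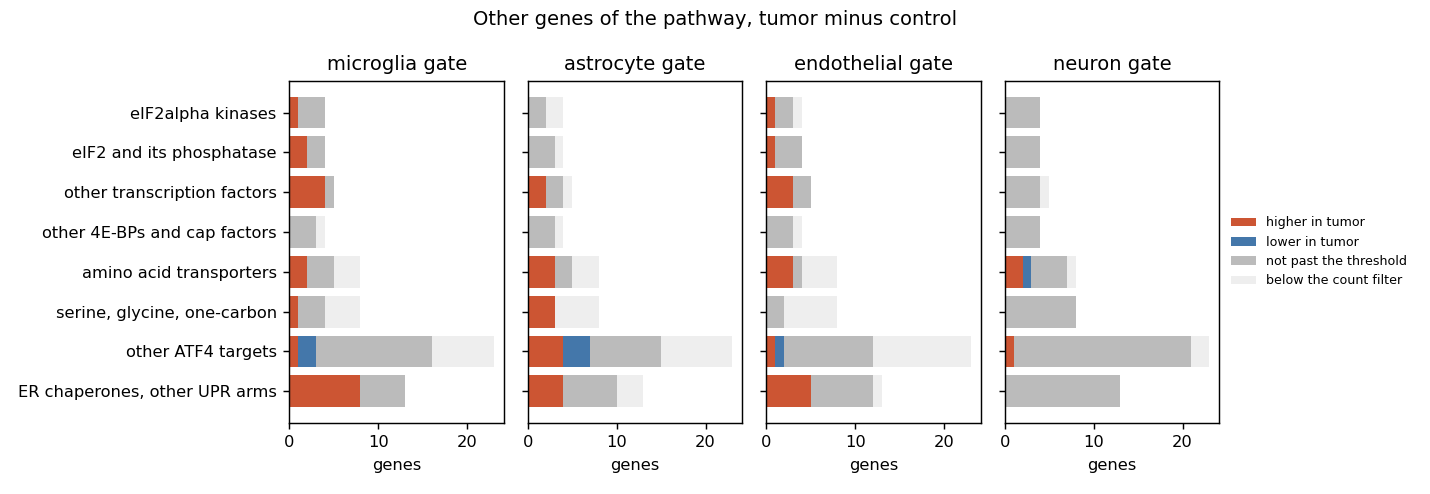
Number of genes (x axis) of 8 pathway lists (y axis) that were higher in tumor, lower in tumor, not past the threshold or below the count filter, in 4 marker gates; nothing is read from the microglia counts. In the astrocyte gate 3 of 8 serine, glycine and one-carbon genes are higher, Psph and Mthfd1 of them past the filter only through the tumor mice. The other 5 were below the filter. In the neuron gate 4 genes in all passed.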

How the data were processed

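The authors deposited, per mouse, a matrix of UMI counts per gene and barcode with no normalization, made with Cell Ranger (6.1.2 in the matrix headers, 7 in the processing notes) on mm10. The barcode list of control 4 was shorter than its matrix, so its barcodes entered no comparison of barcodes. No deposited cell annotation was used here.

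From these counts the 10000 barcodes with most UMIs were taken per library, or all 9001 in tumor 3. A mixture model (scikit-learn 1.9.0) that drew on mitochondrial share chose which barcodes with 200 to 6000 genes to keep. Dropped barcodes averaged 16.07 to 17.39% mitochondrial UMIs in controls, but 3.677% in tumor 4 and 4.837% in tumor 5. A limit of 10% kept 9177 and 9138 cells in these tumors, in place of 5121 and 3645. In tumor 3 it kept 4287 in place of 1721. It kept fewer than the mixture in controls 1 to 4 and in tumors 1 and 2. The cut thus differed between mice and groups. Barcodes with the highest Scrublet scores (Scanpy 1.11.5) were removed as doublets, at 0.8% per 1000 barcodes. Cells were gated by markers, for microglia 6 or more of 12 phagocyte markers at 0.4% or more of UMIs, with 3 or more microglia markers and fewer UMIs of macrophage markers. Counts were summed per mouse and gate with 20 or more cells. Tests used edgeR 4.0.16 (R 4.3.3; quasi-likelihood, TMM, filterByExpr, Benjamini-Hochberg over all genes tested at 0.05). Gates within a mouse were compared with mouse as block. limma 3.58.1 and DESeq2 1.42.0 were alternatives.

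The members and lists were chosen with earlier results of these data known, and gate limits were set after marker counts, not member counts, were seen. The named genes are the 10 members in every comparison and, for the tumor change in astrocytes, endothelium and neurons, the genes of 8 role lists that passed the threshold; other comparisons give these lists as counts. On simulated data with 200 changed genes, 66% were recovered for the tumor change in astrocytes (6672 genes; 2.94% of calls false) and 67.5% for control astrocytes against neurons (13936 genes; 3.57% false). Counts of same-group mice differed by more than sampling noise in all 16 pairs compared (chi-square per gene 4.38 to 371), so no pair was merged; this check can find a duplicate only, and says nothing of whether libraries are independent. Same-numbered mice did not deviate together (r from -0.0696 to 0.103), and the numbers were not used to pair mice.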

Additional observations from a re-analysis of the deposited data

Results flagged for a closer look

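Over 92 groups of 4 or 5 mice, 1 mouse stood apart from the others of its group in 4; about 1 in 20 would do so by chance. Atf4 in the astrocyte gate was 97.8 CPM in tumor 2, where the other tumors had 58.9 to 67.5. Ddit3 in the macrophage gate was 76.3 CPM in tumor 3 and 37 to 43.6 in the others. Eif4ebp1 in the endothelial gate was 146 CPM in tumor 2 and 62.1 to 85.7 in the others, all above the control mice. Eif4ebp1 in free RNA was 5.4 CPM in control 3 and 5.97 to 5.99 in the other controls.

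In 4 cases the interaction test of the tumor change between gates passed the threshold, and not all of them can be relied on. Between astrocyte and neuron gates the log2 change differed by 1.69 for Psat1 and by 2.48 for Phgdh. Between endothelial and neuron gates it differed by 1.2 for Atf4 and by 2.87 for Eif4ebp1. The Eif4ebp1 difference rests on 3 UMIs in control endothelium and 4 to 6 UMIs per mouse in tumor neurons, below free RNA, and is not used as support. Phgdh and Psat1 in tumor neurons also lay below free RNA in 3 of 3 mice, with 4 to 12 and 1 to 21 UMIs per mouse. Only tumors 1 to 3 entered the neuron gate, with 82 to 245 cells each.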

How the results depend on the processing

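Of 999 values of single members under the alternatives, 860 were counted as kept, 71 lost and 13 gained the threshold, 10 moved, and 45 turned direction among tested members. A tested value was kept if it held its direction and side of the threshold. Values given without a test, among them 112 of those kept and all 10 that moved in microglia, were judged by distance from the reported value. Without TMM factors the median log2 change of all genes shifted by -0.236 in all cells, -0.386 in microglia, -0.147 in endothelium and 0.129 in neurons. The count of members called stayed within 1.5 times of the reported one in all cells and control astrocytes against neurons; the microglia contrast, used in the choice, is not counted here. In the astrocyte gate (2) it was 1 with a mitochondrial limit of 10% and 1 with free RNA subtracted. In the endothelial gate (2) it ran from 1 to 2 when mice were left out in turn. In the neuron gate (2) it was 1 with no filter on low counts, 0 with the mitochondrial limit of 10%, 0 with 1 more marker per gate, 0 with the replicate number as a block, and 0 to 2 when mice were left out. In control astrocytes against microglia (3) it was 1 by DESeq2 and 1 with free RNA subtracted. In cycling cells against astrocytes (4) it was 2 with free RNA subtracted and 2 with 50 cells or more. In macrophages against microglia (2) it was 1 by DESeq2, 1 by limma voom, 1 with no doublets removed, and 0 to 2 when mice were left out.

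Log2 values that turned direction were, in astrocytes, Atf4 (-0.0094 without TMM factors, -0.079 with 1 more marker, -0.041 with 50 cells, -0.27 to 0.14 with mice left out in turn) and Slc7a11 (-0.17, free RNA subtracted). In endothelium Phgdh turned (-0.049 by voom, -0.042 without TMM factors, -0.47 with the replicate block, -0.23 to 0.48 with mice left out). In neurons Asns turned (0.016 by DESeq2, 0.11 without TMM factors, 0.072 with the mitochondrial limit, 0.0035 with the replicate block, -0.39 to 0.19 with mice left out), as did Sesn2 (-0.095 by voom, -0.019 with no filter, -0.63 to 0.40 with mice left out). For control astrocytes against neurons Atf4 turned (-0.022 with no filter, -0.016 without TMM factors, -0.024 with the mitochondrial limit, -0.086 to 0.24 with mice left out), as did Chac1 (0.52 by voom), Asns (-0.24 to 0.014 with mice left out) and Eif4ebp1 (-0.019 with the mitochondrial limit). Against microglia Phgdh turned (-0.21, mitochondrial limit). In cycling cells against astrocytes Ddit3 (0.020 with no filter, 0.17 with the mitochondrial limit, 0.019 with 50 cells) and Phgdh (0.024 with no filter, 0.051 with the mitochondrial limit, -0.48 to 0.15 with mice left out) turned. In macrophages against microglia Slc7a11 turned (-0.033 without TMM factors, -0.18 with the mitochondrial limit, -0.13 with no doublets removed, -0.036 with 1 more marker, -0.13 to 0.53 with mice left out). None of these had passed the threshold, and the cause was not tested. Among values given without a test, Atf4 in microglia also turned (-0.19 without TMM factors), as did Eif4ebp1 in macrophages against microglia (-0.027 with no filter, -0.012 without TMM factors, -0.077 to 0.126 with mice left out); the last lay within the spread between mice and were counted above as kept.

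The replicate block, for numbers that the mice only share by name, left 6 of the 9 members called in all cells and 3 in place of 2 in astrocytes and endothelium. A mitochondrial limit of 10% left too few endothelial cells to test. A minimum of 50 cells could not be tested for endothelium or macrophages and left the same mice in microglia, neurons and the control comparisons. Low counts kept Trib3, Chac1 and Sesn2 from being compared between tumor and control mice in every gate tested but neurons.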
